A study of Caenorhabditis elegans with 11 samples.

Results

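The 9 genes described here build the centrosomes of the early *Caenorhabditis elegans* embryo: *zyg-1*, *sas-4*, *sas-5* and *sas-6* for centriole duplication, *spd-2*, *spd-5* and *tbg-1* for centrosome maturation, and *zyg-9* and *tac-1* for the microtubules that grow from it. They were picked by name for these roles, with earlier results of these data known. All 9 were found by gene identifier among the 46772 listed genes, and all 9 were among the 11550 protein-coding genes tested, which had a mean normalized count above 10.

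Polyadenylated RNA from whole early embryos was sequenced with strand-specific libraries in wild-type (3 libraries), *cfp-1* (3), *set-2* (3) and *sin-3* (2) mutants. CFP-1 and SET-2 are subunits of the SET1/COMPASS complex, which methylates lysine 4 of histone H3, and SIN-3 is the scaffold of a histone deacetylase complex. The comparison asks how loss of each affects transcript levels in the embryo. Embryos were collected by hypochlorite treatment of young adults, and replicates were stated to be independent biological samples.

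The labels name only the mutated gene. By the strain list of the study, wild-type is N2 (Bristol) and the mutations are *cfp-1(tm6369)*, *set-2(bn129)* and *sin-3(tm1276)*, described as null or strong loss-of-function alleles. No other allele or treatment was named for the RNA samples. Each mutation was kept in the study both over a balancer chromosome and as an unbalanced stock. Which stock gave the embryos, and whether and for how long their mothers had been homozygous, is not given in the sources used here. Maternal and embryonic effects cannot be told apart.

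Centrosomes organise the mitotic spindle. Each has a pair of centrioles surrounded by pericentriolar material that nucleates microtubules. In *C. elegans* the oocyte has no centrioles, the sperm brings a pair, and the proteins that duplicate and enlarge them are largely made from maternal RNA. The pathway was worked out in this embryo: SPD-2 brings the kinase ZYG-1 to the centriole, ZYG-1 recruits the SAS-5 and SAS-6 complex that builds the inner tube, and SAS-4 adds the centriolar wall. SPD-2 and SPD-5 then form the scaffold that holds gamma-tubulin and the microtubule-stabilising pair ZYG-9 and TAC-1.

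Library totals lay between 21596949 and 35258557 counts. The 3 mutated genes changed by -1.56 (*cfp-1*), -1.53 (*set-2*) and -1.17 (*sin-3*) on the log2 scale in the strains labelled for them, with no overlap with wild-type. Of 18 tested maternal markers, 12 were higher in *cfp-1* than in wild-type, 17 in *sin-3* and 0 in *set-2*, and of 20 zygotic transcription factors 11 were lower in *cfp-1* (1 higher), 12 in *sin-3* and 0 in *set-2*. The age score of a library, its mean log2 CPM (counts scaled to a common library size) of zygotic minus maternal markers, was -2.64 to -2.27 in wild-type, -2.54 to -2.01 in *set-2*, -3.77 to -2.96 in *cfp-1* and -4.11 to -3.96 in *sin-3*. The last 2 strains did not overlap with wild-type. Summed CPM of 38 sperm genes, 4 of them at 0 in every library, was 5.72 to 8.59 in wild-type and 3.37 to 4.05 in *set-2*. It was 5.84 to 8.07 in *cfp-1* and 5.77 to 6.21 in *sin-3*. That of 6 vitellogenin genes was 0.906 to 1.51 in wild-type, 1.77 to 2.46 in *cfp-1*, 1.79 to 3.16 in *set-2* and 1.30 to 1.75 in *sin-3*. Late muscle markers summed to 10.1 to 46.1 CPM in wild-type and 29.2 to 102 in *set-2*, and late cuticle markers to 364 to 704 and 574 to 1356. Meiotic gonad markers summed to 280 to 367 in wild-type, 289 to 376 in *set-2*, 402 to 499 in *cfp-1* and 395 to 424 in *sin-3*. *set-2* replicate 2 stood apart from its 2 partners more than they did from each other (chi-square per gene of 86.9 and 99.2 against 11.4).

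In the WBcel235 annotation, *spd-2* (WBGene00004953) lies on the reverse strand of chromosome I from 8966985 to 8970081 and has 8 exons and 824 codons. *spd-5* (WBGene00004955) lies on the reverse strand of chromosome I from 5171275 to 5176654 with 11 exons and 1198 codons, and *sas-4* (WBGene00004726) on the reverse strand of chromosome III from 8314349 to 8318588 with 10 exons and 808 codons. *sas-5* (WBGene00009385) lies on the forward strand of chromosome V from 11610737 to 11612596 with 7 exons and 404 codons, and *sas-6* (WBGene00012888) on the reverse strand of chromosome IV from 13786945 to 13788731 with 4 exons and 492 codons. The kinase gene *zyg-1* (WBGene00006988) is on the forward strand of chromosome II from 5649748 to 5654422 with 7 exons and 706 codons. The gamma-tubulin gene *tbg-1* (WBGene00006540) is on the reverse strand of chromosome III from 9626536 to 9629154 with 6 exons and 444 codons. *tac-1* (WBGene00006381), the shortest, is on the reverse strand of chromosome II from 14752891 to 14753877 with 3 exons and 260 codons, and *zyg-9* (WBGene00006994), the longest by coding length, is on the forward strand of chromosome II from 8457818 to 8464512 with 10 exons and 1415 codons. The 9 genes are spread over 5 chromosomes. Exons of *spd-2* share 20 bp with *mdt-31* and those of *spd-5* share 39 bp with *hcp-6*, both on the opposite strand. Exons of *sas-6* share 17 bp with *icap-1* on the same strand, and *bli-2* lies inside *zyg-1* on the opposite strand with no shared exon.

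All 9 genes were well covered. Their raw counts lay between 2052 and 15288 per library, a counting error of 0.809% to 2.21%, while the coefficient of variation within a strain was 1.03% to 22.8%. The spread between libraries and not the depth therefore set the precision. For 8 of the 9 the within-strain spread was below the median of all tested genes (0.22 on the log2 scale). That median takes in genes down to a mean normalized count of 10 and was not matched by level. Of the 9, the spread was smallest for *zyg-1* (0.067) and largest for *tbg-1* (0.25). The *tbg-1* spread was uneven among strains, with a coefficient of variation of 4.12% in wild-type, 8.98% in *sin-3*, 18.8% in *cfp-1* and 22.8% in *set-2*.

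Levels are compared between genes as CPM per kb of exon. In wild-type, *sas-5* was the most abundant at 139 ± 8.19 (SD, n = 3) and *sas-4* the least at 39.8 ± 4.01. Between them came *tbg-1* (120 ± 4.95), *tac-1* (117 ± 13.4), *spd-5* (93.8 ± 7.78), *zyg-1* (89.0 ± 3.51), *sas-6* (85.3 ± 6.15), *zyg-9* (83.7 ± 8.27) and *spd-2* (71.3 ± 3.85). Neighbours in this order were separate, with no overlap of their libraries, only at *sas-5* over *tbg-1*, *tac-1* over *spd-5* and *spd-2* over *sas-4*. The 9 wild-type levels stood at the 65.1 to 90.3 percentile of all tested genes. Without the division by length *spd-5* was first and *tac-1* last. In *cfp-1* and *set-2* *tac-1* came first by CPM per kb and in *sin-3* *tbg-1* did, but in each the libraries overlapped with those of the next gene. *sas-4* was last in all 4 strains, below the next gene in every library. Summed over the 9 genes, wild-type had 1862 ± 80.8 CPM, *sin-3* 1897 ± 6.89, *cfp-1* 1810 ± 93.7 and *set-2* 1700 ± 75.4.

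**Figure D1:**
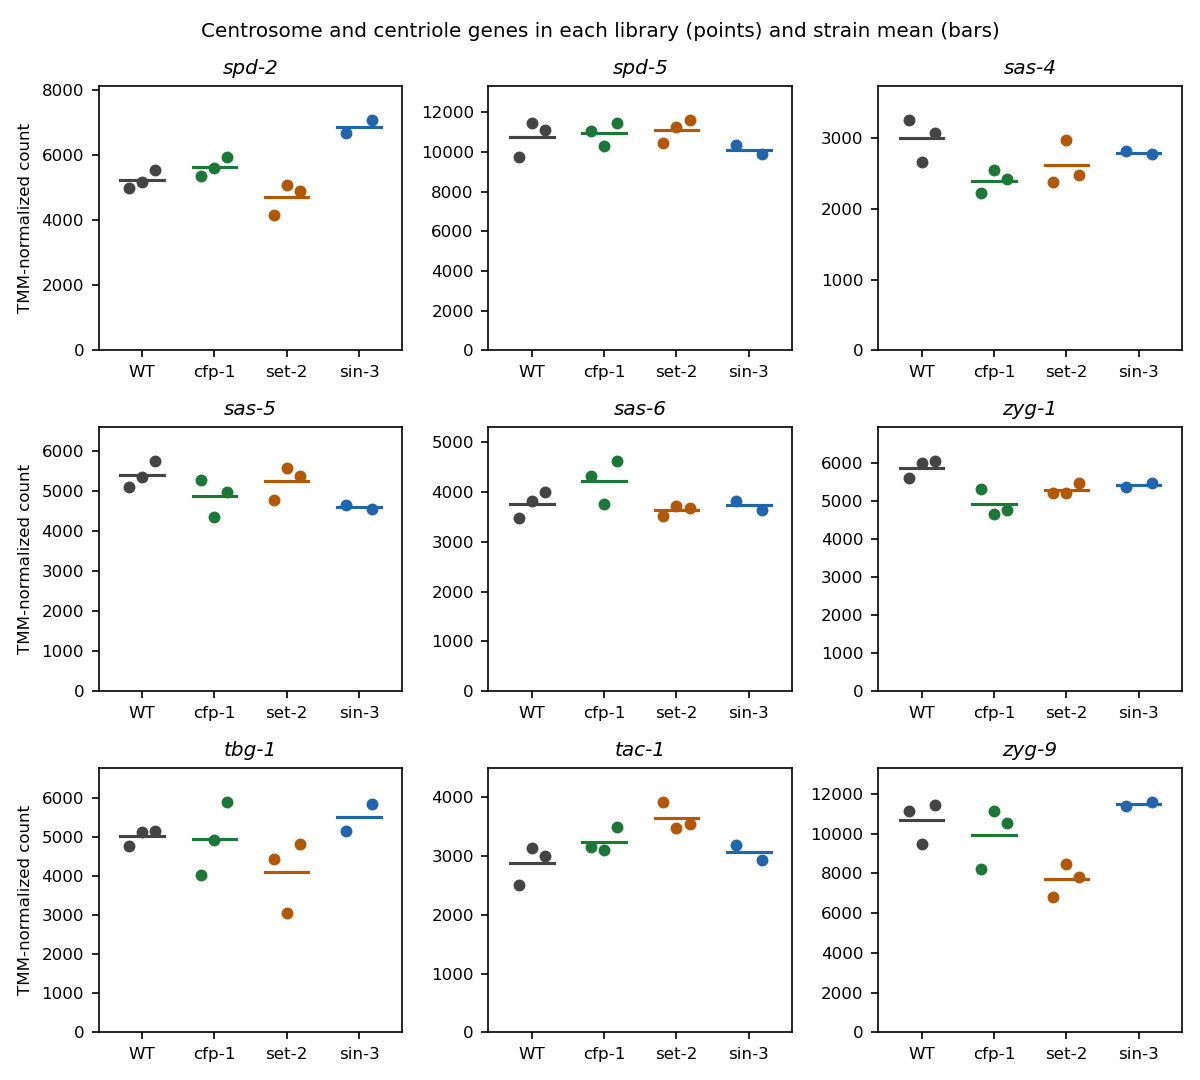
TMM-normalized count of each of the 9 genes (y axis, from 0) in every library (points) of each strain (x axis), with the strain mean as a bar. *spd-2* is highest in the 2 *sin-3* libraries (6681 and 7065) and *zyg-9* lowest in *set-2*, while *spd-5* stays between 9747 and 11575 in every library.

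Against wild-type, 1 of 9 was called in each mutant: *zyg-1* was lower in *cfp-1*, *zyg-9* was lower in *set-2* and *spd-2* was higher in *sin-3* (edgeR quasi-likelihood test, Benjamini-Hochberg adjusted p under 0.05 over all tested genes). Among all tested genes 24% were called in *cfp-1* (12.7% higher, 11.4% lower), 25.2% in *sin-3* (12.6% in each direction) and 14.4% in *set-2* (7.39% higher, 7.03% lower). With 9 genes, counts of 1 against these shares are a description. Groups did not overlap with wild-type for 2 genes in *cfp-1* (40.3% of all tested genes), for 3 in *set-2* (35.2%) and for 4 in *sin-3* (60.8%). The 3 comparisons share the wild-type libraries. In whole embryos, fewer cells of a type and less RNA per cell cannot be told apart.

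The median absolute log2 change of the 9 genes was 0.15 in *cfp-1* (all tested genes 0.31), 0.15 in *set-2* (0.26) and 0.11 in *sin-3* (0.36). All tested genes reach down to a mean normalized count of 10 and were not matched to the 9 by level, here or in the shares that follow. The largest change of any of the 9 was exceeded in size by 48.7% of all tested genes for *cfp-1*, 46.8% for *sin-3* and 29.1% for *set-2*. The 95% interval of the change lay within 1.5-fold in either direction for 9 of 9 genes in *cfp-1*, for 8 in *sin-3* (not *spd-2*) and for 7 in *set-2* (not *tbg-1* or *zyg-9*), and within 2-fold for every gene in each mutant.

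**Figure D2:**
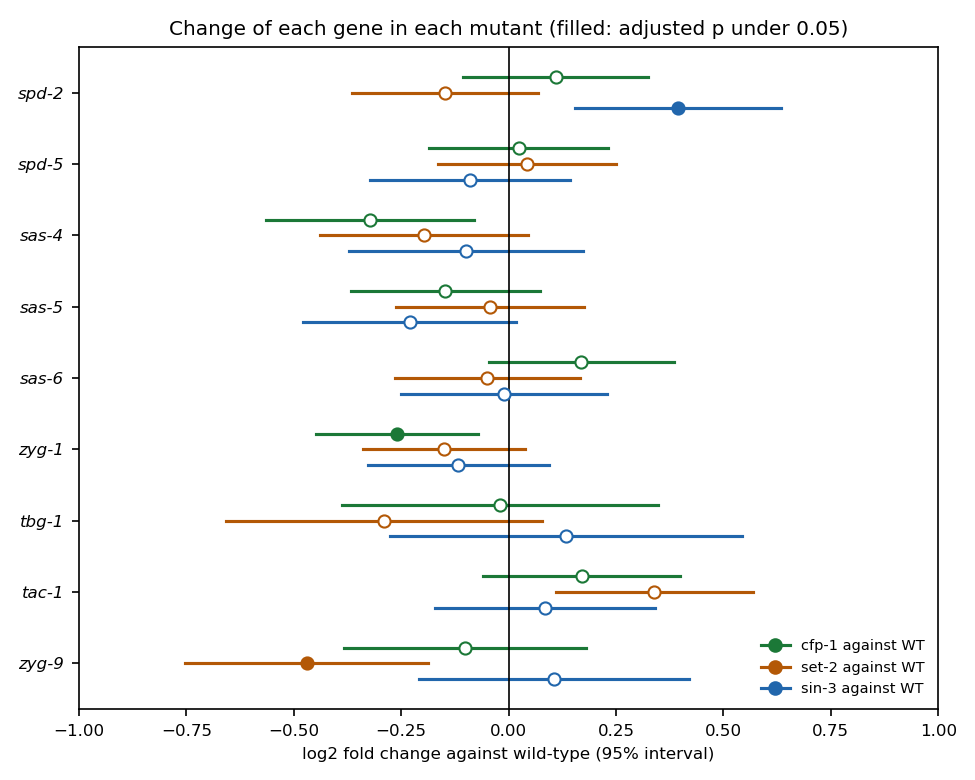
log2 fold change against wild-type (x axis) of each of the 9 genes (y axis) in the 3 mutants, with 95% intervals as lines and filled points where the adjusted p was under 0.05. The 3 filled points are *zyg-1* in *cfp-1* (-0.26), *zyg-9* in *set-2* (-0.47) and *spd-2* in *sin-3* (0.39).

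Among the duplication genes, *zyg-1*, the kinase that starts centriole duplication, had normalized counts of 5623, 5997 and 6048 in wild-type. It had 5318, 4660 and 4776 in *cfp-1*, 5386 and 5472 in *sin-3*, and 5212, 5217 and 5495 in *set-2*. All 8 mutant libraries lay below all 3 wild-type libraries. In *cfp-1* the log2 fold change was -0.26 ± 0.086 (SE), a change of -16.5%, and the call was narrow (edgeR adjusted p = 0.0468). In *set-2* it was -0.15 (edgeR adjusted p = 0.252) and in *sin-3* -0.12 (edgeR adjusted p = 0.401), neither called. The call in *cfp-1* held in 2 of 11 refits that left out 1 library, those without *set-2* replicate 2 or *cfp-1* replicate 1. It was lost without any of wild-type 1, 2 and 3, *set-2* 1 and 3, *cfp-1* 2 and 3 and *sin-3* 1 and 2, with log2 values of -0.29 to -0.22 and edgeR adjusted p of 0.0637 to 0.147. With wild-type 1, 2 or 3 left out, 853, 964 or 898 of all tested genes were called lower in *cfp-1*, beside 1315 with all libraries. The age scores of *cfp-1* and wild-type did not overlap either, and with the score as a covariate *zyg-1* was at -0.19 in *cfp-1* (edgeR adjusted p = 0.465). That fit called 271 of all tested genes lower in *cfp-1*.

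*sas-4*, which encodes the CPAP-related protein of the centriole wall, had 3243, 2656 and 3068 normalized counts in wild-type and 2220, 2539 and 2412 in *cfp-1*. *sin-3* had 2813 and 2769, and *set-2* had 2379, 2966 and 2481. The *cfp-1* libraries were all below wild-type, and those of the other mutants overlapped with it. The log2 fold change in *cfp-1* was -0.32 ± 0.11 (SE), with an edgeR adjusted p of 0.0541, so it was not called, although its size exceeded that of *zyg-1*. It was called without wild-type 2 (-0.40, edgeR adjusted p = 0.0385) or *set-2* 2 (-0.32, edgeR adjusted p = 0.0221), and by DESeq2 (-0.32, adjusted p = 0.0422).

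*sas-5* and *sas-6* encode coiled-coil proteins that bind each other. *sas-5* had 5102, 5355 and 5736 normalized counts in wild-type, 5278, 4359 and 4984 in *cfp-1*, 4658 and 4544 in *sin-3*, and 4779, 5563 and 5374 in *set-2*. Only the *sin-3* libraries were all below wild-type, with a log2 fold change of -0.23 (edgeR adjusted p = 0.156). *sas-6* had 3465, 3805 and 4000 in wild-type, 4316, 3747 and 4606 in *cfp-1*, 3814 and 3643 in *sin-3*, and 3505, 3707 and 3677 in *set-2*. Every mutant overlapped with wild-type in *sas-6*, and its log2 fold changes were 0.17 in *cfp-1* (edgeR adjusted p = 0.232), -0.05 in *set-2* (0.763) and -0.01 in *sin-3* (0.954).

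Of the maturation genes, *spd-2*, the CEP192-related scaffold protein that acts in both duplication and maturation, varied most among strains. Its normalized counts were 4981, 5169 and 5536 in wild-type, 5365, 5609 and 5947 in *cfp-1*, 6681 and 7065 in *sin-3*, and 4159, 5096 and 4904 in *set-2*. Both *sin-3* libraries were above every other library of the series. The log2 fold change in *sin-3* was 0.39 ± 0.11 (SE), 31.5% higher with a 95% interval of 11.4% to 55.2% (edgeR adjusted p = 0.022). It was 0.11 in *cfp-1* (edgeR adjusted p = 0.45) and -0.15 in *set-2* (0.325), where it was -0.04 without *set-2* replicate 1 (0.811). The call in *sin-3* held in 7 of 11 refits without 1 library. It was lost without wild-type 1 (0.36, edgeR adjusted p = 0.0657) or wild-type 2 (0.39, 0.0594). Those 2 refits called 979 and 977 of all tested genes higher in *sin-3*, beside 1458 with all libraries. The *spd-2* call was also lost without *sin-3* 1 (0.46) or *sin-3* 2 (0.35), where 1 *sin-3* library remained and fewer of all tested genes were called. The age scores moved with *spd-2*, since *sin-3* also had the lowest scores of the 4 strains, with a summed maternal marker level of 9642 to 9674 CPM against 5133 to 6406 in wild-type. With the age score as a covariate the *spd-2* change in *sin-3* was 0.15 (edgeR adjusted p = 0.843). That fit called 1 gene higher and 3 lower of all 11550 in *sin-3*, so genotype and age score cannot be told apart there.

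*spd-5*, which encodes the main scaffold protein of the pericentriolar material, had the smallest F statistic of the 9 genes in a test for any difference among strains (0.562). Its normalized counts were 9747, 11428 and 11107 in wild-type, 11069, 10274 and 11468 in *cfp-1*, 10348 and 9870 in *sin-3*, and 10436, 11236 and 11575 in *set-2*. All 4 strains overlapped, apart from *set-2* and *sin-3*, whose libraries did not. The log2 fold changes were 0.02, 0.04 and -0.09, with edgeR adjusted p of 0.883, 0.792 and 0.57, and the 95% intervals on the log2 scale were -0.18 to 0.23 in *cfp-1*, -0.17 to 0.25 in *set-2* and -0.32 to 0.14 in *sin-3*.

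*tbg-1*, the gamma-tubulin gene, had 4772, 5118 and 5141 normalized counts in wild-type and 4021, 4926 and 5875 in *cfp-1*. *sin-3* had 5147 and 5845, and *set-2* had 4424, 3042 and 4821. The lowest value of all, 3042, came from *set-2* replicate 2, the library that stood apart from its partners, and the *sin-3* libraries were just above wild-type. The log2 fold change was -0.29 ± 0.17 (SE) in *set-2* (edgeR adjusted p = 0.256), -0.02 ± 0.17 in *cfp-1* (0.943) and 0.13 ± 0.19 in *sin-3* (0.635). Without *set-2* replicate 2 the value in *set-2* was -0.12 (edgeR adjusted p = 0.599). With the age score as a covariate *tbg-1* was at -0.74 in *cfp-1* (edgeR adjusted p = 0.0801) and -0.96 in *sin-3* (0.245). The 95% interval of the change in *set-2* ran from -36.6% to 5.48%.

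*zyg-9*, an XMAP215-family gene whose protein lengthens microtubules, had 11129, 9474 and 11434 normalized counts in wild-type and 6837, 8462 and 7827 in *set-2*. It had 8226, 11132 and 10520 in *cfp-1* and 11407 and 11574 in *sin-3*. All 3 *set-2* libraries were below wild-type, and 1 *cfp-1* library lay among them. In *set-2* the log2 fold change was -0.47 ± 0.13 (SE), a change of -27.8% with a 95% interval of -40.6% to -12.2% (edgeR adjusted p = 0.0323). In *cfp-1* it was -0.10 (edgeR adjusted p = 0.604) and in *sin-3* 0.11 (0.625). The call in *set-2* held in 5 of 11 refits. It was lost without wild-type 1 or 3, *set-2* 1 or 3 and *sin-3* 1 or 2, with log2 values of -0.47 to -0.37 and edgeR adjusted p of 0.0514 to 0.128. With wild-type 1 or 3 left out, 636 or 326 of all tested genes were called lower in *set-2*, beside 812 with all libraries. With upper-quartile factors in place of TMM the *zyg-9* value in *set-2* was -0.35 (edgeR adjusted p = 0.0904).

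*tac-1*, a TACC-family gene whose protein binds ZYG-9 and holds it at the centrosome, went the other way in value in *set-2*. It had 2508, 3138 and 3001 normalized counts in wild-type and 3908, 3478 and 3550 in *set-2*, 3145, 3100 and 3485 in *cfp-1*, and 3184 and 2932 in *sin-3*. The *set-2* libraries were all above wild-type. The log2 fold change was 0.34 ± 0.11 (SE) in *set-2* (edgeR adjusted p = 0.0503), just outside the threshold, 0.17 in *cfp-1* (0.259) and 0.08 in *sin-3* (0.629). In *set-2* it was called with DESeq2 size factors (edgeR adjusted p = 0.0447), upper-quartile factors (0.00856), the age score as a covariate (0.0498) and DESeq2 (adjusted p = 0.0204). It was also called without *set-2* replicate 2 (0.37, edgeR adjusted p = 0.0447) or *cfp-1* replicate 1 (0.34, edgeR adjusted p = 0.0474).

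A test for any difference among the 4 strains called 2 of the 9 genes, *spd-2* (edgeR adjusted p = 0.00996) and *zyg-9* (0.02), where 51.4% of all tested genes were called. The adjusted p was 0.0724 for *tac-1*, 0.107 for *zyg-1* and 0.112 for *sas-4*, and 0.228 to 0.68 for *sas-6*, *tbg-1*, *sas-5* and *spd-5* (edgeR quasi-likelihood test).

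Between mutants, *set-2* and *sin-3* differed in 2 of the 9 genes, both lower in *set-2*, where 40.7% of all tested genes were called (19.9% higher and 20.8% lower in *set-2*). *spd-2* was at 4719 ± 495 normalized counts (n = 3) in *set-2* and 6873 ± 272 (n = 2) in *sin-3*, a log2 difference of -0.54 ± 0.11 (SE, edgeR adjusted p = 0.0032). *zyg-9* was at 7708 ± 819 in *set-2* and 11490 ± 118 in *sin-3*, a log2 difference of -0.58 ± 0.14 (SE, edgeR adjusted p = 0.00867). The groups did not overlap for 6 of the 9 genes, where 67.9% of all tested genes did not. The *spd-2* call held in 11 of 11 refits without 1 library and that of *zyg-9* in 10. The *zyg-9* call was lost without *sin-3* replicate 2 (-0.57), which left 1 *sin-3* library and fewer calls among all tested genes. With the age score as a covariate neither was called (-0.27 and -0.0030, edgeR adjusted p = 0.894 and 0.998). That fit called 2 genes higher and 0 lower in *set-2* of all 11550 tested.

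*cfp-1* differed from *set-2* in 0 of the 9 genes by edgeR at the threshold, with 3 at an unadjusted p under 0.05, where edgeR called 22.1% of all tested genes (12.6% higher and 9.52% lower in *cfp-1*). DESeq2 called 1 of the 9, *zyg-9*, higher in *cfp-1*, where it called 1614 higher and 1328 lower of all 11550 tested genes. *spd-2* was 0.26 higher in *cfp-1* on the log2 scale (edgeR adjusted p = 0.0807) and *zyg-9* 0.37 higher (0.0593). *cfp-1* differed from *sin-3* in 0 of the 9 genes by edgeR, with 1 at an unadjusted p under 0.05 and 0 called by DESeq2, where edgeR called 11.6% of all tested genes (6.25% higher and 5.34% lower in *cfp-1*). That gene was *spd-2*, at -0.29 (edgeR adjusted p = 0.114). Groups did not overlap for 2 and 4 genes, where 36.7% and 48.8% of all tested genes did not.

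The 9 genes hold 3 pairs whose proteins act together, and the ratio of their transcripts within a library does not depend on how libraries are scaled to each other. The pairs were set by known binding, but the ratios were computed after the gene values had been seen, and they are given as a description. The SPD-2 to SPD-5 transcript ratio, in CPM per kb, was 0.800, 0.708 and 0.780 in wild-type, 0.758, 0.854 and 0.811 in *cfp-1*, 1.01 and 1.12 in *sin-3*, and 0.623, 0.710 and 0.663 in *set-2*. Both *sin-3* libraries were above all others, and *spd-2* exceeded *spd-5* only there. The *tac-1* to *zyg-9* ratio was 1.17, 1.71 and 1.36 in wild-type, 1.98, 1.44 and 1.71 in *cfp-1*, 1.45 and 1.31 in *sin-3*, and 2.96, 2.13 and 2.35 in *set-2*. The *set-2* libraries were above all others, with a mean of 2.48 ± 0.430 against 1.41 ± 0.278 in wild-type. The *sas-6* to *sas-5* ratio was 0.600, 0.628 and 0.616 in wild-type and 0.648, 0.589 and 0.605 in *set-2*, but 0.723, 0.760 and 0.817 in *cfp-1* and 0.724 and 0.709 in *sin-3*. Here *cfp-1* and *sin-3* lay above all wild-type and *set-2* libraries although neither gene alone was called. The age scores split the strains in the same way. How far the ratios follow the age score was not tested. Each of the 4 separations of a ratio from wild-type reached the smallest p that 3 against 3 or 3 against 2 libraries allow in an exact two-sided permutation test, 0.1, so none could pass 0.05.

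**Figure D3:**
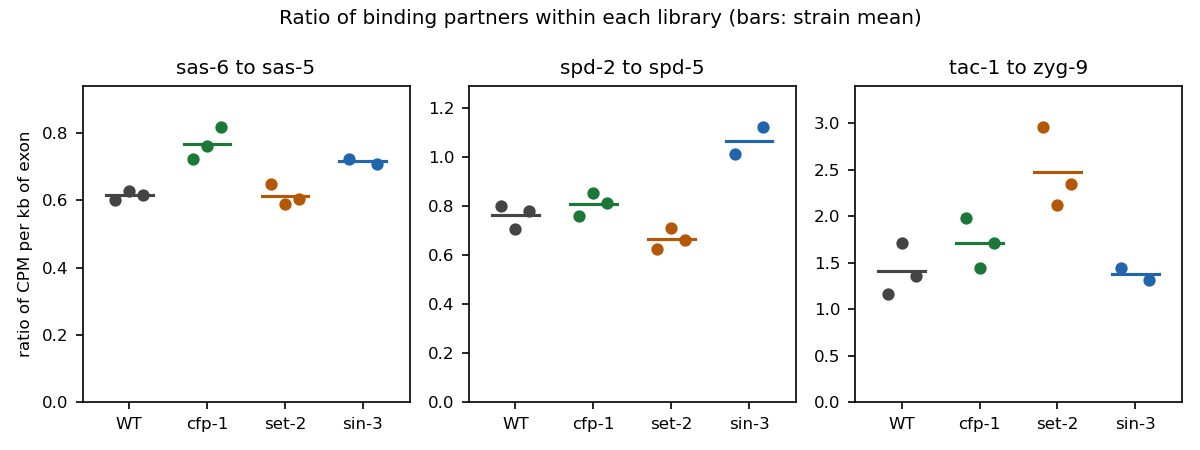
Ratio of CPM per kb of exon (y axis, from 0) for *sas-6* to *sas-5*, *spd-2* to *spd-5* and *tac-1* to *zyg-9* in every library (points) by strain (x axis), with the strain mean as a bar. *sin-3* stands above the other strains for *spd-2* to *spd-5* (1.01 and 1.12), *set-2* for *tac-1* to *zyg-9* (2.13 to 2.96), and *cfp-1* and *sin-3* above wild-type for *sas-6* to *sas-5*.

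The wider pathway was read from 34 related genes in 8 lists, all of them tested. Against wild-type, 2 were higher and 2 lower in *cfp-1* (edgeR adjusted p under 0.05), beside 12.7% and 11.4% of all tested genes. In *sin-3* 4 were higher and 1 lower, beside 12.6% each way, and in *set-2* 0 were higher and 4 lower, beside 7.39% and 7.03%. The median log2 change over the 34 genes was -0.05 for *cfp-1*, 0.20 for *sin-3* and -0.17 for *set-2*, where that of all tested genes was between -0.03 and 0 in each. The calls were in scaffold partners, kinases, gamma-tubulin complex partners, phosphatase subunits and the microtubule dynamics gene *cls-2*. Of these 13 calls, all 13 were lost with a block by title number, and the 9 in *cfp-1* and *sin-3* with the age score as a covariate, which kept the 4 in *set-2*. Of all 11550 tested genes, the title-number block called 0 for *sin-3*. It called 6 higher and 19 lower for *set-2*, but only 2 higher and 5 lower for *cfp-1*. The age-score fit called 1 higher and 3 lower for *sin-3*. For *cfp-1* it called 289 higher and 271 lower, beside 1462 and 1315 without the score. Where almost every gene lost its call, the loss is not particular to these genes. Upper-quartile factors ended 3 of the 4 related-gene calls in *set-2*, those of *sas-7*, *pcmd-1* and *gip-1* (-0.29 to -0.19, edgeR adjusted p = 0.0876 to 0.157).

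**Figure D4:**
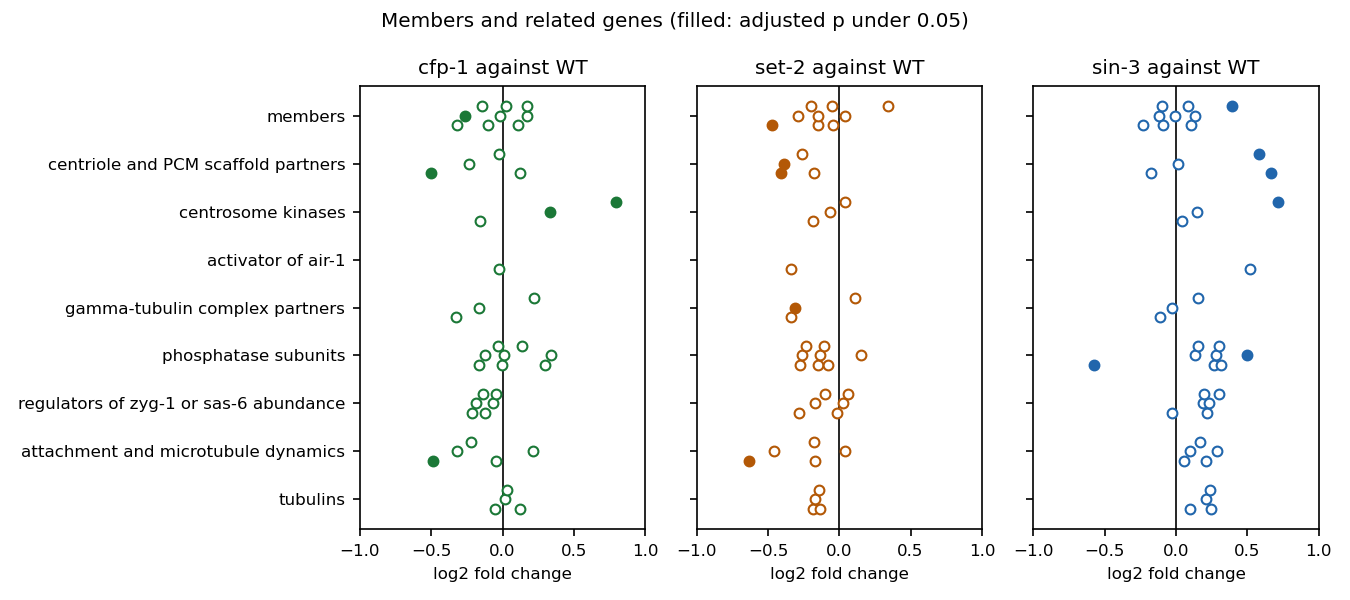
log2 fold change against wild-type (x axis) of the 9 genes (top line) and of 34 related genes by list (y axis) in the 3 mutants, with filled points where the adjusted p was under 0.05. In *sin-3* the called scaffold partners lie to the right (0.58 and 0.67), and in *set-2* all 4 called related genes lie to the left.

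Of the 4 scaffold partners, *pcmd-1*, whose protein ties the pericentriolar material to the centriole, had 4764, 4763 and 4954 normalized counts in wild-type and 7263 and 8071 in *sin-3*, but 3499, 3547 and 3847 in *set-2* and 3366, 4463 and 4472 in *cfp-1*. It rose in *sin-3* (log2 0.67 ± 0.13 SE, edgeR adjusted p = 0.00344, called in 11 of 11 refits) and fell in *set-2* (-0.41, edgeR adjusted p = 0.0335). In *cfp-1* its value was -0.24 (edgeR adjusted p = 0.151). The *set-2* call held in 5 of 11 refits and was lost without wild-type 1, 2 or 3, *set-2* 1 or 2 or *sin-3* 1 (-0.42 to -0.36, edgeR adjusted p = 0.0514 to 0.118). *sas-1*, needed for stable centrioles, had 3000, 3207 and 3400 in wild-type and 4681 and 4897 in *sin-3*, above every other library. It rose in *sin-3* by 0.58 ± 0.12 (SE, edgeR adjusted p = 0.00519). The call was lost without *sin-3* replicate 2 (0.55), which left 1 *sin-3* library and fewer calls among all tested genes. With the age score as a covariate the *sin-3* values were -0.02 for *pcmd-1* and -0.05 for *sas-1*, with edgeR adjusted p of 0.982 and 0.95.

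*sas-7*, whose protein binds SPD-2 and is needed for centriole structure, had 4470, 3452 and 4119 normalized counts in wild-type, 2761, 2956 and 2783 in *cfp-1*, 3419 and 3675 in *sin-3*, and 2892, 3400 and 2895 in *set-2*. All *cfp-1* and *set-2* libraries were below wild-type. It fell in *cfp-1* by 0.50 on the log2 scale (SE 0.11, edgeR adjusted p = 0.0075, called in 11 of 11 refits). It also fell in *set-2*, at -0.39 (edgeR adjusted p = 0.0362), a call that held in 4 of 11 refits and was lost without wild-type 1 or 3, *set-2* 1 or 3, *cfp-1* 3 or *sin-3* 1 or 2 (-0.39 to -0.31, edgeR adjusted p = 0.0529 to 0.135). In *cfp-1* it was -0.45 with the age score as a covariate (edgeR adjusted p = 0.231).

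Among the 3 kinases, *plk-2*, a Polo-like kinase also known for its role in meiotic chromosome pairing, had 1034, 1100 and 1265 normalized counts in wild-type, 1909, 1856 and 2125 in *cfp-1*, 1931 and 1794 in *sin-3*, and 1014, 1272 and 1214 in *set-2*. It rose in *cfp-1* (0.79 ± 0.12 SE, edgeR adjusted p = 0.000976) and in *sin-3* (0.72 ± 0.13 SE, edgeR adjusted p = 0.00275), each called in 11 of 11 refits, and its value in *set-2* was 0.04 (0.836). These were the largest changes against wild-type among the 34 related genes and the 9. Of the 6 tested meiotic gonad markers 3 were also called higher in *cfp-1* and 2 in *sin-3*, and 0 in *set-2*; their part in the *plk-2* change was not tested. With the age score as a covariate *plk-2* was at 0.64 in *cfp-1* (edgeR adjusted p = 0.0966) and 0.48 in *sin-3* (0.531). How reads that *plk-2* may share with a close relative were counted was not tested, so its counts are uncertain. The same holds for the 4 tubulin genes. *air-1*, the Aurora A kinase that drives centrosome maturation, had 8419, 9219 and 9503 in wild-type and 10721, 11159 and 12377 in *cfp-1*, all above wild-type. It rose by 0.34 on the log2 scale (edgeR adjusted p = 0.0338), a call that held in 5 of 11 refits and was lost without wild-type 1, 2 or 3, *cfp-1* 2 or 3 or *sin-3* 2 (0.27 to 0.37, edgeR adjusted p = 0.055 to 0.139), and was 0.04 with the age score as a covariate (edgeR adjusted p = 0.896).

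Of the 3 gamma-tubulin complex partners, *gip-1* had 3688, 3629 and 3801 normalized counts in wild-type and 2930, 2868 and 3167 in *set-2*. It fell in *set-2*, at -0.31 (edgeR adjusted p = 0.0426), where *tbg-1* itself was not called. That call held in 3 of 11 refits and was lost without wild-type 1, 2 or 3, *set-2* 1 or 2, *cfp-1* 3 or *sin-3* 1 or 2 (-0.33 to -0.27, edgeR adjusted p = 0.0564 to 0.147). *cls-2*, a CLASP-family gene for microtubule dynamics, had 6488, 4777 and 6354 in wild-type, 3986, 4706 and 3889 in *cfp-1*, 6156 and 6403 in *sin-3*, and 3242, 4348 and 3749 in *set-2*. All *cfp-1* and *set-2* libraries were below wild-type. It fell in *set-2* (-0.64 ± 0.14 SE, edgeR adjusted p = 0.0127) and in *cfp-1* (-0.49 ± 0.14 SE, edgeR adjusted p = 0.0268). The *set-2* call was lost without wild-type 3 or *set-2* 1 (-0.58 and -0.52, edgeR adjusted p = 0.0617 to 0.0623), and the *cfp-1* call without wild-type 1 or 3 or *cfp-1* 1 or 3 (-0.45 to -0.41, edgeR adjusted p = 0.0722 to 0.103). The *cfp-1* value was -0.51 with the age score as a covariate (edgeR adjusted p = 0.292).

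The 8 phosphatase subunits held 2 calls, both in *sin-3*. *rsa-1*, the subunit that targets protein phosphatase 2A to centrosomes, had 6737, 8297 and 7892 normalized counts in wild-type and 10828 and 10712 in *sin-3*, and rose by 0.49 ± 0.14 (SE, edgeR adjusted p = 0.0211). The call was lost without wild-type 1 or without *sin-3* 1 or 2 (0.41 to 0.51). *sds-22*, a regulator of protein phosphatase 1, had 3041, 3651 and 3551 in wild-type and 2345 and 2234 in *sin-3*, below every other library. It fell in *sin-3* (-0.58 ± 0.13 SE, edgeR adjusted p = 0.00818). That call was lost without *sin-3* 1 or 2 (-0.59 to -0.54). For both genes, a refit without a *sin-3* library left 1 in that strain and called fewer of all tested genes. In the fit with the age score as a covariate *rsa-1* was at 0.04 (edgeR adjusted p = 0.978) and *sds-22* at -0.92 (0.237).

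The 9 genes did not vary as a block over the 11 libraries. The median Pearson r of their log2 CPM over the 36 pairs was 0.061, beside -0.0045 for pairs of all tested genes, with 20 pairs above 0. The pairs ran from -0.73 for *tac-1* and *zyg-9* to 0.77 for *spd-2* and *zyg-9*. With strain means removed the median was 0.096. These values share libraries, strains and scaling and are descriptions without a test. The mean profile of the 9 genes spanned only -0.13 to 0.11 on the log2 scale. The 5 genes whose levels were most like it, by Pearson r over 11 libraries, were *ogdh-2* (0.959), *thoc-2* (0.925), *bckd-1A* (0.923), *rad-54.L* (0.897) and *F30F8.1* (0.895).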

How the data were processed

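By the methods of the study and the submitters' processing notes, reads were demultiplexed with bcl2fastq 2.17.1.14, mapped to *C. elegans* release WS254 with STAR 2.4.1d, filtered on mapping score with SAMtools 0.1.19 and counted per gene with HTSeq 0.7.2. The authors deposited these raw counts, 1 column per library. Their 3 tables of each mutant against wild-type (DESeq2 mean, log2 fold change, error and p-values) were not used. Groups came from the genotype labels.

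Tests used edgeR 4.0.16 under R 4.3.3. Protein-coding genes (Ensembl release 115 annotation of WBcel235, also the source of coordinates and exon lengths) with a mean TMM-normalized count above 10 were tested. A single quasi-likelihood model had 1 mean per strain over 11 libraries, and Benjamini-Hochberg adjustment ran over 11550 genes with calls at 0.05. The SE is the log2 fold change over the square root of F. Normalized counts are counts over effective library size, times its mean. Counting errors cover counting only, since copies made by PCR were not told from independent molecules.

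The 9 genes and all lists were chosen with earlier results of these data known. The text names all 9 genes and those of 34 related genes called in at least 1 mutant against wild-type (others are marked where named), and describes marker lists (maternal, zygotic, sperm, vitellogenin, late muscle and cuticle, meiotic gonad). Alternatives were DESeq2 1.42.0, its size factors or upper-quartile factors in edgeR, no filter or filterByExpr, a threshold of 0.01, only the 2 strains compared, blocks by replicate number, the age score as covariate, and each library left out. Applying them to the related genes was decided after seeing the data. Only the edgeR quasi-likelihood test, for *cfp-1* against wild-type, was tried on simulated counts with known changes. Tables and figures used matplotlib 3.10.9 and pandas 2.3.3 under Python 3.11.15. Gene sequences were not used here.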

Additional observations from a re-analysis of the deposited data

Results flagged for a closer look

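Some genes differed between 2 mutants by the direct contrast in the same edgeR quasi-likelihood fit, with a Benjamini-Hochberg adjusted p under 0.05. Between *set-2* and *sin-3*, *spd-2* differed by -0.54 and *zyg-9* by -0.58 on the log2 scale, both lower in *set-2*. Of the 34 related genes 15 were lower in *set-2* and 1 higher, beside 20.8% and 19.9% of all tested genes. Of those also called against wild-type, the centriole stability gene *sas-1* differed by -0.84, *pcmd-1* by -1.08, *plk-2* by -0.68, *gip-1* by -0.46 and *cls-2* by -0.73, all lower in *set-2* than in *sin-3*, and *sds-22* by 0.50, higher in *set-2*. The edgeR adjusted p of these 8 differences lay between 0.000249 and 0.0106. The other 10 lower genes differed by -0.86 to -0.36 (edgeR adjusted p = 0.00499 to 0.038). The lowest was *tpxl-1*, the activator of AIR-1.

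Between *cfp-1* and *sin-3*, 6 related genes were lower in *cfp-1* and 1 higher, beside 5.34% and 6.25% of all tested genes. *sas-1* differed by -0.46 (edgeR adjusted p = 0.0288), *pcmd-1* by -0.90 (0.00177) and *cls-2* by -0.58 (0.033), lower in *cfp-1*, and *sds-22* by 0.58 (0.0154), higher in *cfp-1*. The other lower genes were *sur-6* (-0.47, edgeR adjusted p = 0.0468), *efl-1* (-0.41, 0.028) and *dpl-1* (-0.44, 0.0496). Between *cfp-1* and *set-2*, 4 related genes were called, all higher in *cfp-1*, beside 12.6% of all tested genes. *sas-1* differed by 0.38 (edgeR adjusted p = 0.0272), *plk-2* by 0.75 (0.00208) and *air-1* by 0.40 (0.0194). The remaining gene was *szy-2* (0.57, edgeR adjusted p = 0.00949). *tpxl-1*, *sur-6*, *efl-1*, *dpl-1* and *szy-2* were not called against wild-type, were named after their values were seen and were not run under the alternatives. *cls-2* was therefore low in both *cfp-1* and *set-2* and differed from *sin-3* in each, while *plk-2* was high in *cfp-1* and *sin-3*. The age score moved with these contrasts, at a mean of -2.24 in *set-2*, -3.45 in *cfp-1* and -4.03 in *sin-3*. With it as a covariate, only *pcmd-1* (-0.67, edgeR adjusted p = 0.016) and *sds-22* (0.71, 0.0359) were still called among the differences that were run under it, both between *cfp-1* and *sin-3*. Of all 11550 tested genes, that fit called 2 higher and 0 lower in *set-2* against *sin-3*. It called 5 higher and 6 lower in *cfp-1* against *set-2*, and 247 and 118 in *cfp-1* against *sin-3*. Where almost no gene was called, a lost call is not particular to these genes. Leaving out 1 library ended the call of *zyg-9* between *set-2* and *sin-3* without *sin-3* 2 (-0.57). In the same contrast it ended that of *gip-1* without *sin-3* 2 (-0.43) and of *sds-22* without *sin-3* 1 or 2 (0.46 to 0.53). Between *cfp-1* and *sin-3* it ended that of *sds-22* without *sin-3* 1 or 2 (0.55 to 0.61). It also ended that of *cls-2* without *cfp-1* 1 or 3 or *sin-3* 1 or 2 (-0.62 to -0.53). The *sas-1* call there was lost without *cfp-1* 1 or *sin-3* 1 or 2 (-0.50 to -0.35). Each refit without a *sin-3* library left 1 in that strain and called fewer of all tested genes in these contrasts. Between *cfp-1* and *set-2*, leaving out 1 library ended the call of *sas-1* without *set-2* 1 or 2 or *cfp-1* 2 or 3 (0.32 to 0.37, edgeR adjusted p = 0.0508 to 0.119). It ended that of *air-1* without *cfp-1* 3 (0.34, edgeR adjusted p = 0.0978).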

How the results depend on the processing

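Most of the 54 values of the 9 genes (9 genes in 6 comparisons) kept their direction and their side of the threshold: 51 with DESeq2 size factors, 53 with filterByExpr, 51 with no filter on low counts, 51 with only the 2 strains compared, 50 with DESeq2 and 42 with upper-quartile factors. Fewest were kept with the age score as a covariate (39, with 10 of the others reversed in sign) and the title-number block (38, with 11 reversed). Upper-quartile factors moved the median log2 change of all tested genes from -0.02 to 0.10 in *set-2* against wild-type and from 0.06 to 0.21 in *set-2* against *sin-3*, and the calls in *set-2* from 854 higher and 812 lower to 1220 and 447. The values of the 9 genes read relative to that shift. Why the other values moved was not tested. Of the 13 calls of related genes against wild-type, 13 held with DESeq2, DESeq2 size factors and filterByExpr, 11 with no filter and with the 2 strains alone, 12 with the block by description number, 10 with upper-quartile factors, 4 with the age score and 0 with the block by title number. The last 2 settings also left fewer of all tested genes called in each mutant.

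The count of genes lower in *cfp-1*, 1 by the chosen method, was 0 with DESeq2 size factors, upper-quartile factors, no filter, the 2 strains alone, either block, the age score or a threshold of 0.01, and 2 with filterByExpr and DESeq2, where *sas-4* joined *zyg-1*. The count lower in *set-2*, 1, was 0 with upper-quartile factors, the 2 strains alone, the title-number block and the threshold of 0.01, and the count higher in *set-2*, 0, was 1 (*tac-1*) with DESeq2 size factors, upper-quartile factors, the age score and DESeq2. The count higher in *sin-3*, 1, was 0 with the title-number block, the age score and the threshold of 0.01. Between *set-2* and *sin-3* the count lower, 2, was 0 with the title-number block and the age score, and the count higher, 0, was 3 with upper-quartile factors (*spd-5*, *sas-5* and *tac-1*). Between *cfp-1* and *set-2* the count higher, 0, was 1 (*zyg-9*) with DESeq2, which called 1614 of all tested genes higher there. The 2 genes that differed among the 4 strains became 1 at the threshold of 0.01 and 0 with the title-number block or the age score.

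Values that changed sign were mostly near 0. *sas-6* in *sin-3* was 0.019 with DESeq2, 0.019 with DESeq2 size factors, 0.011 with no filter and 0.0041 with the 2 strains alone, and *spd-5* in *cfp-1* was -0.0037 with no filter. With upper-quartile factors *tbg-1* in *cfp-1* was 0.011, *sas-5* and *sas-6* in *set-2* were 0.084 and 0.078, and *sas-4*, *sas-6* and *zyg-1* in *set-2* against *sin-3* were 0.054, 0.11 and 0.12. With the age score, *spd-2* and *spd-5* in *cfp-1* were -0.050 and -0.039, *tbg-1*, *tac-1* and *zyg-9* in *sin-3* were -0.96, -0.089 and -0.41, *tbg-1* and *zyg-9* in *cfp-1* against *set-2* were -0.55 and -0.028, *tbg-1* in *cfp-1* against *sin-3* was 0.23, and *sas-6* and *tbg-1* in *set-2* against *sin-3* were 0.042 and 0.77. Of the related genes, the age score turned *sas-1* and *pcmd-1* in *sin-3* to -0.046 and -0.024, *sas-1* in *cfp-1* against *set-2* to -0.099 and *gip-1* in *set-2* against *sin-3* to 0.034. The score is nearly confounded with the difference from wild-type in *sin-3*, where the median SE went from 0.20 to 0.44. In *cfp-1* the median SE went from 0.174 to 0.304. In *set-2*, whose scores overlapped with wild-type, it went from 0.173 to 0.166.

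Whether the replicate numbers pair the samples could not be decided. The check used deviations from strain means of 2 or 3 libraries, so those of the 2 *sin-3* libraries mirror each other (r of -0.33 and 0.33 with wild-type 1). Deviations of libraries with the same number in the description had r of -0.45 to 0.47 over 15 pairs, 7 of them over 0.1, and those with the same title number -0.41 to 0.34 over 6 pairs, 2 over 0.1. The replicate block by description number turned *sas-6* in *sin-3* to 0.030. The replicate block by title number left, of all genes, 6 higher and 19 lower in *set-2*, 2 higher and 5 lower in *cfp-1* and none in *sin-3*. It turned *tbg-1* in *cfp-1* to 0.069, *spd-5*, *sas-6*, *zyg-1* and *zyg-9* in *sin-3* to 0.022, 0.26, 0.014 and -0.23, *spd-5*, *sas-5*, *sas-6* and *tac-1* in *cfp-1* against *sin-3* to -0.010, -0.096, -0.026 and -0.039, and *sas-4* and *sas-5* in *set-2* against *sin-3* to 0.030 and -0.021.

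Leaving out 1 library gave 0 to 2 genes lower in *cfp-1*, 0 to 1 lower and 0 to 1 higher in *set-2*, 0 to 1 higher in *sin-3*, 0 to 1 higher in *cfp-1* than *set-2*, 1 to 3 lower in *set-2* than *sin-3* and 0 to 3 differing among strains. Without a *sin-3* library the remaining one is assumed to vary like the other strains. Signs changed within these ranges: *spd-5* in *cfp-1* -0.043 to 0.069, in *set-2* -0.024 to 0.11 and in *cfp-1* against *set-2* -0.066 to 0.024, *tbg-1* in *cfp-1* -0.16 to 0.11, *zyg-9* in *cfp-1* -0.19 to 0.020, *sas-5* in *set-2* -0.088 to 0.040, *sas-6* in *sin-3* -0.066 to 0.037 and *tac-1* in *sin-3* -0.0057 to 0.15. With 2 to 3 libraries a strain, the spread between libraries and not the depth limited what could be called, and all mutants were set against the same wild-type libraries.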
